A study of Mus musculus with 36 samples.

Results

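The genes described here handle the entry of sugar into the mouse liver and its first steps of use: the glucose carriers Slc2a2 and Slc2a1, the glucokinase regulator Gckr, the fructose kinase Khk, the liver phosphofructokinase Pfkl, the bifunctional enzymes Pfkfb1 and Pfkfb3 and the pyruvate kinase Pklr. They were taken by gene symbol, as printed beside each probe in the array files, with control spots left out. The rule found 13 probes of 56605 on the array, and these stood for 8 genes of 37325. All 8 passed the filter on dim probes, which kept 24250 genes for testing, and each gene is described by its brightest probe unless a second probe is named.

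The study measured liver RNA of male mice on 1-colour Agilent arrays, 1 array per liver, in 6 groups of 6. Mice called AAKO lack ATGL, the lipase that starts the release of stored fat, in white adipose tissue, and are compared with mice called CTRL, both on the C57Bl/6J background. The labels do not name the Cre line or promoter behind the deletion, the age of the mice or whether CTRL mice were littermates. Each genotype was studied fed ad libitum, after a fast of 24 h, and fed with CL316243, an agonist of the beta-3 adrenergic receptor, given by gavage at 3 mg/kg in 0.5% carboxymethyl cellulose at ZT10, where ZT counts hours from lights on. All mice were killed at ZT16. A gavage or vehicle is stated for the CL316243 groups only. The fed groups carry the label of one experiment and the fasted and CL316243 groups that of another, so in every comparison with fed livers the condition and the experiment cannot be told apart; comparisons of AAKO with CTRL within a condition, and of fasted with CL316243 livers, stay within an experiment.

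As background, hepatocytes take up glucose mainly through the low-affinity carrier encoded by Slc2a2, and glucokinase, held inactive in the nucleus by the Gckr product when glucose is scarce, phosphorylates it. Fructose enters glycolysis by another door: ketohexokinase, the Khk product, phosphorylates it and so bypasses phosphofructokinase, the main control point of the pathway. Fructose 2,6-bisphosphate, made and broken down by the Pfkfb enzymes, activates phosphofructokinase, and liver pyruvate kinase closes the pathway; several of these genes are known targets of insulin and of the sugar-sensing factor ChREBP, encoded by Mlxipl.

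The measured transcripts are shown here through the probes whose genomic span is longer than the probe itself, so that they cross a splice junction; they are the ones behind the Slc2a2 and Pklr results and the second probe of Pfkfb3. The probe of Slc2a2 lies at chr3:28625253-28625961 on the plus strand, that of Pklr at chr3:88948907-88949425 on the plus strand, and the second of Pfkfb3 at chr2:11404189-11405602 on the minus strand, all in build mm9 as the files give them. The 60-base probes read as follows.
Slc2a2 probe: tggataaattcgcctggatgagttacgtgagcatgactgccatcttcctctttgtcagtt
Pklr probe: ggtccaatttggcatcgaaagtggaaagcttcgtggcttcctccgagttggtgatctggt
Pfkfb3 second probe: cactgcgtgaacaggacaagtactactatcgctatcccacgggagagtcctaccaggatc

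Upstream sequence was searched on both strands, in the 250 bases before and 50 after each RefSeq start of the 8 genes (13 windows, build GRCm38.p6), for the E-box CACGTG, the forkhead letters GTAAACA, the cyclic AMP response element TGACGTCA and the direct repeat DR1 of nuclear receptors. Only the E-box was found, once before a start of Khk and once before a start of Pfkfb3; 7.15% of all 32851 such windows hold it, against 3.65% for GTAAACA, 1.79% for TGACGTCA and 0.0396% for the repeat. The Khk match begins 71 bases and the Pfkfb3 match 53 bases before the start. These windows are shown with the match in capitals, and that of Slc2a2, the gene with the largest fall, for comparison; a match is only a match of letters. Khk is given at chr5:30921309-30921558 on the plus strand, Pfkfb3 at chr2:11502091-11502340 on the minus strand and Slc2a2 at chr3:28697653-28697902 on the plus strand.
Khk upstream: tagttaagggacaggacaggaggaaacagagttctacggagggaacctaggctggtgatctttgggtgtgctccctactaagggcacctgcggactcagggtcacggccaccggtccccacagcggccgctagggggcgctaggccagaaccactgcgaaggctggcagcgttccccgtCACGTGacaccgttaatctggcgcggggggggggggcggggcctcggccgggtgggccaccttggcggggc
Pfkfb3 upstream: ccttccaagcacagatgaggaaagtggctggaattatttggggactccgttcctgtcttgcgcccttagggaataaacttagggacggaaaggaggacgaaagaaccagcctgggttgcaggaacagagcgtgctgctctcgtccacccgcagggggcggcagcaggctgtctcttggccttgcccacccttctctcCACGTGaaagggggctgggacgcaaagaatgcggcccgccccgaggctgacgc
Slc2a2 upstream: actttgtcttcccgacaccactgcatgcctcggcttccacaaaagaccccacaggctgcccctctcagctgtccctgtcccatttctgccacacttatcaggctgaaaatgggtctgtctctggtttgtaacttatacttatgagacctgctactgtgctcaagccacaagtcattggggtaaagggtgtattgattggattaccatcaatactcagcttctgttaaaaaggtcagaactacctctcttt

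Levels are given as log2 intensity relative to the 75th percentile of the same array, so that 0 is the brightness of that percentile, and they are compared between groups for the same probe only. On each array 33126 to 37200 probes were well above background, and no spot was saturated. All 6 hepatocyte markers checked were above background on every array. One array stood apart: on the first principal component CTRL fasted replicate 2 had a score of 81.3, against 16.8 to 29.0 for the other CTRL fasted livers and 103 to 111 for AAKO fasted livers. Without it 5 of the 8 genes were still called between AAKO and CTRL fasted livers and 7 between fasted and fed CTRL livers, the same counts as with it, while the calls between fasted and CL316243-treated CTRL livers went from 6 to 7 and those of the interaction of fasted with fed livers from 3 to 5. In the same order, the calls over all genes went from 11963 to 12571 and from 10503 to 9937. For the other pair of comparisons they went from 8929 to 8226 and from 8222 to 9268. In whole liver, fewer cells of a type and less RNA per cell cannot be told apart.

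A gene is called when its Benjamini-Hochberg adjusted p from limma, over all genes tested, is under 0.05. In fed livers none of the 8 genes was called between AAKO and CTRL, where 0.0784% of all genes were called (19 genes, with 1644 at an unadjusted p under 0.05); none of the 8 reached an unadjusted p under 0.05. After the fast 5 of the 8 were called, against 49.3% of all genes: Pfkfb3, Slc2a1 and Pklr were higher in AAKO livers and Slc2a2 and Pfkl lower. After CL316243 6 of the 8 were called, against 24.8% of all genes: Slc2a2, Pklr, Khk and Pfkl were lower in AAKO livers and Pfkfb3 and Pfkfb1 higher. The median difference of the 8 genes was 0.02 after the fast and -0.34 after CL316243, beside -0.04 and 0.03 for all genes.

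**Figure D1:**
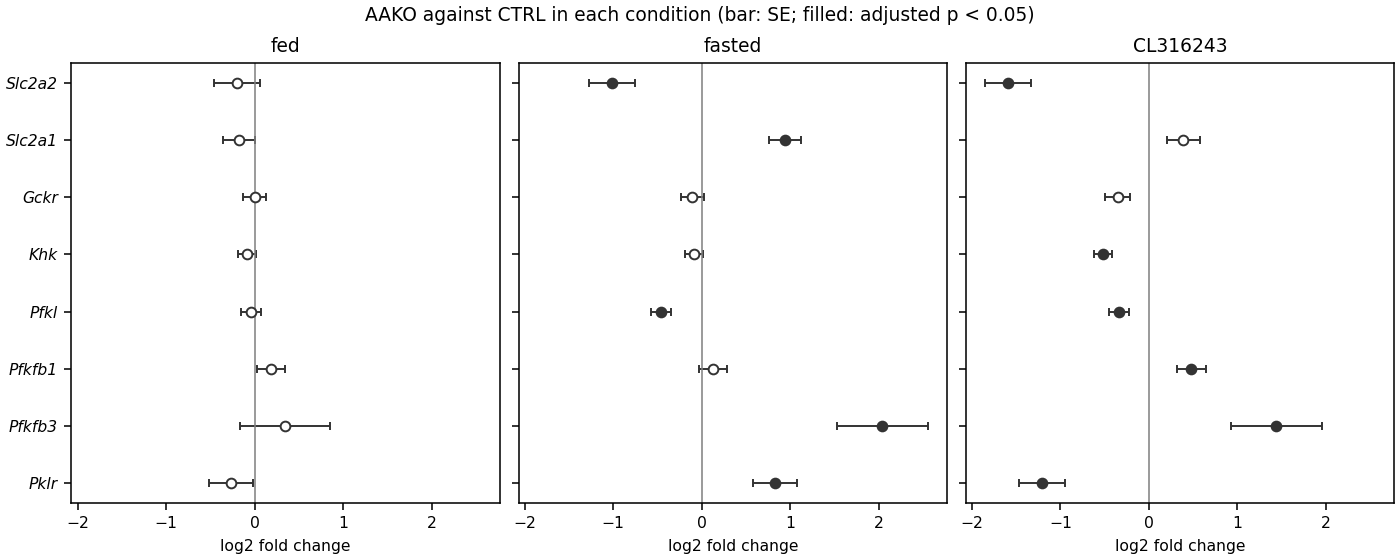
Log2 fold change of AAKO over CTRL livers (horizontal axis) for each of the 8 genes (rows), in fed, fasted and CL316243-treated mice; points are limma estimates, bars their SE, and filled points passed the adjusted threshold. No fed point is filled, while Slc2a2 sits at -1.01 after the fast and -1.59 after CL316243, and Pklr at 0.83 and -1.21.

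Most of these genes were lower in fasted than in fed livers of both genotypes. Here and below, rises and falls against fed livers are differences between groups in which condition and experiment cannot be told apart. Between fasted and fed CTRL livers 7 of the 8 fell and Slc2a1 was not called, with 43.3% of all genes called and medians of -0.79 for the 8 genes and -0.02 for all genes. In AAKO livers 5 fell and Slc2a1 rose, with 63.5% of all genes called. Pklr and Pfkfb3 were not called there. The fall of Pfkl in both genotypes is that of its brighter probe alone. The genotype's effect after the fast differed from that in fed livers for Slc2a1, Pklr and Pfkl by the interaction test, which called 33.9% of all genes.

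By the brightest probe of each gene, few of these genes differed between CL316243-treated and fed CTRL livers. Only Slc2a1 was called there, lower than in fed livers, with 23.3% of all genes called, while in AAKO livers Slc2a2, Pklr, Pfkl and Khk were lower and 31.4% of all genes were called. A second Pfkfb1 probe was also lower in CL316243-treated than in fed CTRL livers (-0.81, adjusted p = 0.000111). The genotype's effect differed between CL316243 and fed livers for Slc2a2 and Khk, in a test that called 10.9% of all genes. Fasted against CL316243 livers, within 1 experiment, differed for 6 of the 8 genes in CTRL mice (36.8% of all genes called; Slc2a2, Pklr, Khk, Gckr and Pfkl lower, Slc2a1 higher) and for 7 in AAKO mice (59.9% of all genes; Slc2a1 and Pklr higher, Slc2a2, Pfkl, Gckr, Pfkfb1 and Khk lower). The interaction of genotype with that pair of conditions was called for Pklr and Khk, beside 32.3% of all genes. These comparisons share groups, so their values are set side by side and not as independent evidence.

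**Figure D2:**
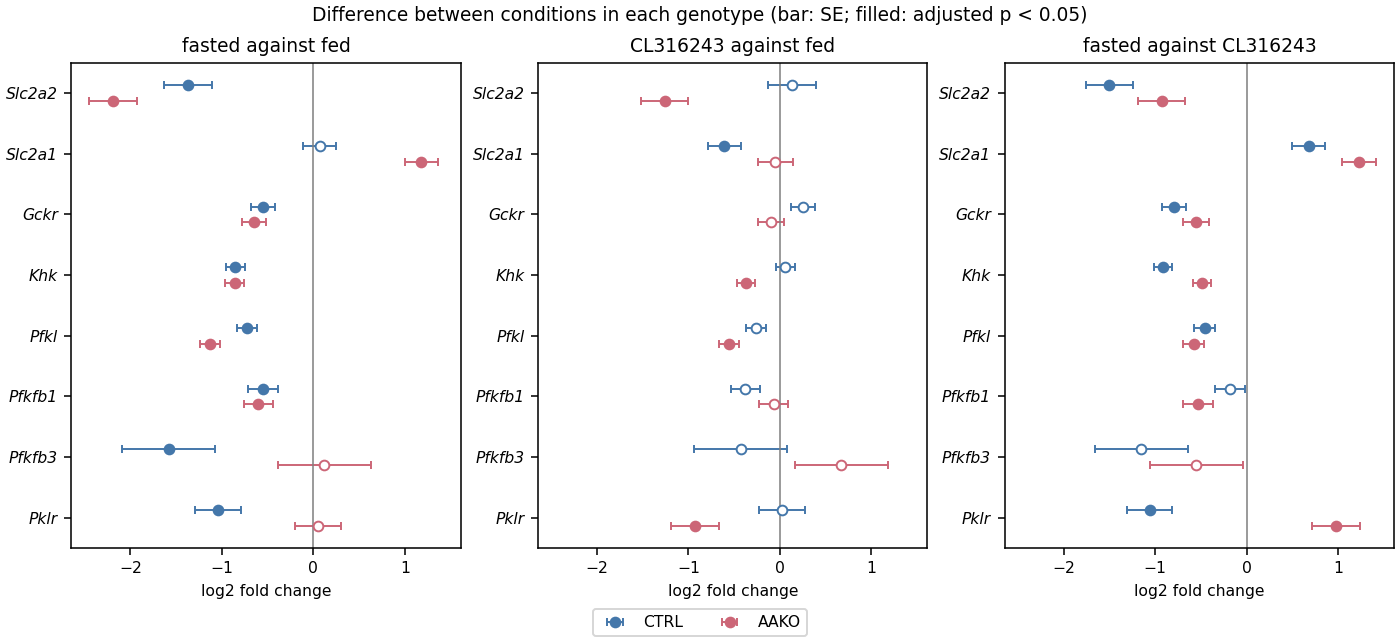
Log2 fold change between conditions (horizontal axis) for each gene (rows), separately in CTRL (blue) and AAKO (red) livers; bars are SE and filled points passed the adjusted threshold. Pklr lies at -1.06 in CTRL and 0.98 in AAKO livers for fasted against CL316243, the only called pair of points on opposite sides of 0.

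Slc2a2 encodes GLUT2, the glucose and fructose carrier of hepatocytes. In CTRL livers its level ran from 1.58 to 2.42 (median 2.11) when fed, from -0.35 to 1.36 (median 0.74) after the fast and from 1.70 to 2.44 (median 2.19) after CL316243. AAKO livers ran from 1.17 to 2.57 (median 1.77) when fed, from -1.24 to 0.46 (median -0.31) after the fast and from 0.12 to 1.04 (median 0.61) after CL316243. Every CL316243-treated AAKO liver was thus below every CL316243-treated CTRL liver, while the fasted genotypes overlapped and the fed ones were intermixed.

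Slc2a2 was 2.59-fold lower in fasted than in fed CTRL livers (log2 change -1.37 ± 0.26 SE, adjusted p = 5.86e-05). In AAKO livers it was 4.56-fold lower (-2.19 ± 0.26, adjusted p = 9.04e-09). Fasted and fed arrays did not overlap in either genotype. Against CL316243-treated livers of the same experiment the fasted ones were lower too, with -1.50 ± 0.26 in CTRL mice (adjusted p = 2.40e-05) and -0.93 ± 0.26 in AAKO mice (adjusted p = 0.00281). CL316243-treated and fed CTRL livers differed by 0.13, not called (95% interval -0.40 to 0.66). In AAKO mice Slc2a2 was 2.40-fold lower in CL316243-treated than in fed livers (-1.26 ± 0.26, adjusted p = 0.000341). AAKO livers were 3.00-fold lower than CTRL after CL316243 (-1.59 ± 0.26, adjusted p = 2.84e-05) and 2.01-fold lower after the fast (-1.01 ± 0.26, adjusted p = 0.00163). The difference of the genotype effect between CL316243 and fed livers was -1.39 ± 0.37 (adjusted p = 0.0115), and that between fasted and fed livers -0.81 ± 0.37, which was not called (adjusted p = 0.0871) but was called without CTRL fasted replicate 2 (-1.03, adjusted p = 0.0160). The arrays were washed in 2 batches; within them the genotype difference after CL316243 was -1.65 and -1.39, both called, and that after the fast -1.67 in the first (adjusted p = 0.000326) and -0.35 in the second (adjusted p = 0.475), the batch that holds CTRL fasted replicate 2. The interaction of CL316243 with fed livers was not called within either batch (-1.47, adjusted p = 0.0689, and -1.18, adjusted p = 0.292). In the second batch the AAKO differences of CL316243-treated from fed livers (-0.78, adjusted p = 0.234) and of fasted from CL316243-treated livers (-0.76, adjusted p = 0.122) were not called either.

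Slc2a1 encodes GLUT1, the carrier of most tissues and of red cells, found in liver in several cell types. CTRL livers lay between 1.26 and 2.03 when fed (median 1.78), between 0.80 and 2.19 after the fast (median 2.03) and between 0.75 and 1.53 after CL316243 (median 1.05). AAKO livers lay between 1.30 and 1.75 (median 1.59), between 2.34 and 3.12 (median 2.71) and between 1.04 and 1.87 (median 1.47) in the same conditions. All 6 fasted AAKO livers were above every other liver, the only group of Slc2a1 whose range was apart from its neighbour's.

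Slc2a1 was 2.27-fold higher in fasted than in fed AAKO livers (1.18 ± 0.18, adjusted p = 1.38e-06). In CTRL livers it differed by 0.07, not called (95% interval -0.31 to 0.45). The genotype difference after the fast was 0.94 ± 0.18 (1.91-fold, adjusted p = 8.43e-05), and it differed from that in fed livers by 1.11 ± 0.26 (adjusted p = 0.00119). Within the wash batches the fasted genotype difference was 0.86 and 1.02, both called, and the interaction 0.92 (adjusted p = 0.148) and 1.30 (adjusted p = 0.00890). Slc2a1 was lower in CL316243-treated than in fed CTRL livers (-0.61 ± 0.18, adjusted p = 0.0150). Within wash batch 1 this was -0.36 and not called (adjusted p = 0.513), and within batch 2 -0.86 (adjusted p = 0.0170). In AAKO livers the change with CL316243 was -0.05, not called. Within 1 experiment, fasted livers exceeded CL316243-treated ones by 0.68 ± 0.18 in CTRL mice (adjusted p = 0.00367) and 1.23 ± 0.19 in AAKO mice (adjusted p = 9.42e-07). The interaction of 0.55 was not called (adjusted p = 0.113). The CTRL difference lost its call within wash batch 1 (0.41, adjusted p = 0.394) and with only its own groups fitted (adjusted p = 0.0515).

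Markers of other cells moved beside Slc2a1. Between CL316243 and fed CTRL livers 5 of 6 endothelial markers, 4 of 6 Kupffer cell and macrophage markers, 3 of 6 stellate cell markers and 3 of 5 tested red cell precursor markers were lower, beside 12.8% of all genes. The summed red cell level, in linear units of the array's 75th percentile, was 138 to 369 in CL316243-treated against 354 to 531 in fed CTRL livers. The summed endothelial level was 16.2 to 30.5 against 31.4 to 46.5, and the summed stellate level 29.8 to 42.6 against 43.5 to 59.3. In the fasted comparison of genotypes, 2 of 6 each of the stellate cell, neutrophil and endothelial markers were higher in AAKO livers, beside 21.3% of all genes. The median changes of these lists were -0.10, 1.07 and 0.30. Of 6 hepatocyte markers 2 were higher and 3 lower there. Summed endothelial levels were 29.8 to 39.0 against 19.5 to 38.9, summed stellate levels of 75.2 to 101 against 59.0 to 73.0 and summed neutrophil levels of 7.00 to 80.6 against 2.24 to 51.2; red cell levels there were 187 to 308 against 243 to 504. The part of these cells in the Slc2a1 differences was not tested.

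**Figure D3:**
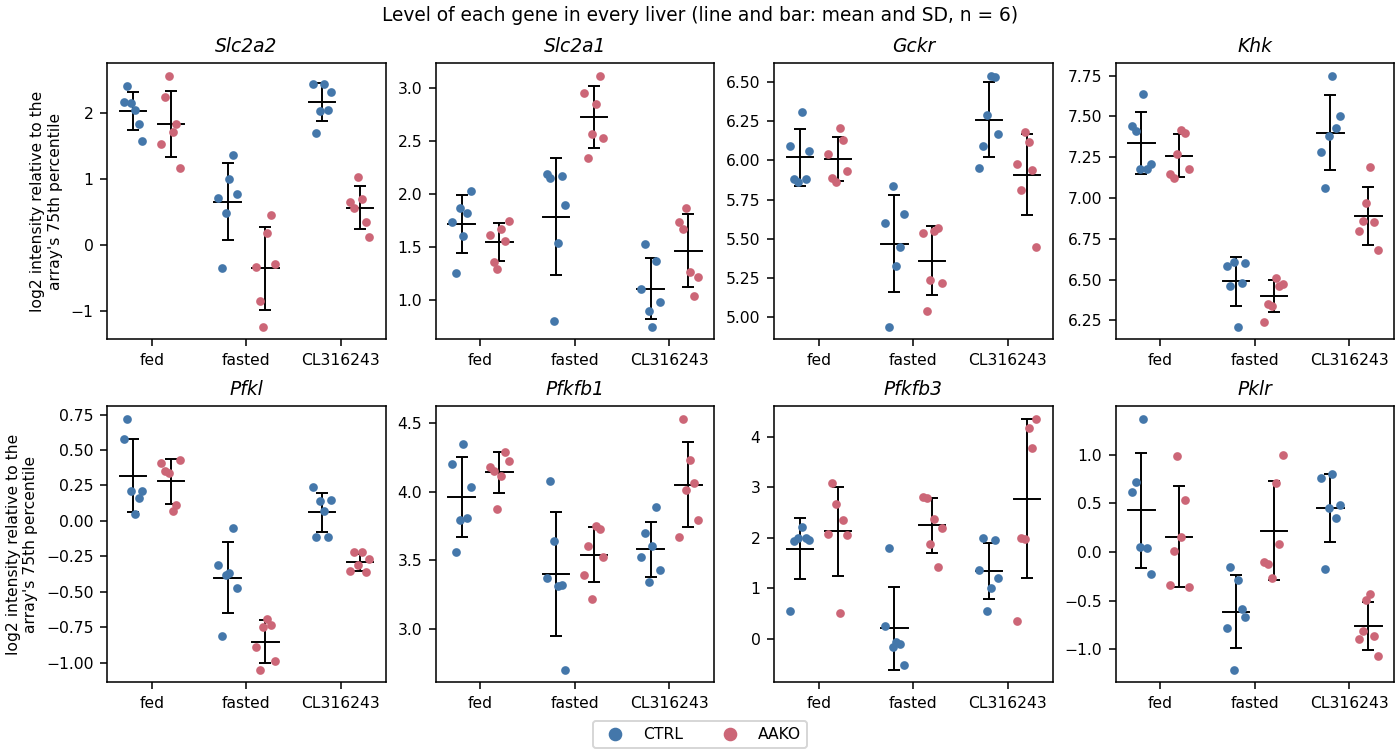
Level of each of the 8 genes (log2 intensity relative to the array's 75th percentile, vertical axes with their own ranges) in every liver, by condition, with CTRL in blue and AAKO in red; lines and bars are mean and SD of 6 livers. Slc2a2 and Pklr are lower in all 6 AAKO than in all 6 CTRL livers after CL316243, and Slc2a1 is highest in the 6 fasted AAKO livers.

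Gckr encodes the protein that binds glucokinase and holds it in the nucleus. Fed CTRL livers had levels of 5.86 to 6.31 (median 5.97), fasted ones 4.94 to 5.84 (median 5.52) and CL316243-treated ones 5.95 to 6.54 (median 6.23). For AAKO livers the levels were 5.86 to 6.21 (median 5.98), 5.04 to 5.57 (median 5.39) and 5.45 to 6.18 (median 5.96). Fasted livers of each genotype were all below the fed livers of that genotype, and the genotypes overlapped in every condition. Gckr was 1.46-fold lower in fasted than in fed CTRL livers (-0.55 ± 0.13, adjusted p = 0.00129) and 1.57-fold lower in AAKO livers (-0.65 ± 0.13, adjusted p = 9.24e-05). The interaction of -0.11 was not called (95% interval -0.49 to 0.28). The fall in CTRL livers was -0.37 and not called within wash batch 1 (adjusted p = 0.139). After CL316243 the genotype difference was -0.35 ± 0.14 and just missed the threshold (adjusted p = 0.0576), which 7 of 15 other settings passed, among them the authors' value table (-0.41, adjusted p = 0.0116). It was uneven between the wash batches, at -0.59 in batch 1 (adjusted p = 0.0271) and 0.01 in batch 2 (adjusted p = 0.977). Within the experiment that holds both conditions, fasted livers differed from CL316243-treated ones by -0.79 ± 0.13 in CTRL mice (adjusted p = 1.90e-05) and by -0.55 ± 0.14 in AAKO mice (adjusted p = 0.000729).

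Khk encodes ketohexokinase, the first enzyme of fructose use. Its levels in CTRL livers were 7.18 to 7.64 when fed (median 7.31), 6.21 to 6.61 after the fast (median 6.53) and 7.06 to 7.75 after CL316243 (median 7.41). AAKO livers had 7.12 to 7.42 (median 7.23), 6.24 to 6.51 (median 6.41) and 6.68 to 7.19 (median 6.85). The fasted livers of both genotypes formed the lowest 12 values, apart from all others. By this brighter probe Khk fell with the fast by nearly the same amount in CTRL (-0.85 ± 0.10, 1.81-fold, adjusted p = 2.05e-08) and AAKO livers (-0.86 ± 0.10, 1.82-fold, adjusted p = 4.54e-09). The interaction was -0.01 with a 95% interval of -0.29 to 0.28. Against CL316243-treated livers of the same experiment, fasted ones were also all lower, by -0.91 ± 0.10 in CTRL mice (adjusted p = 1.20e-08) and -0.49 ± 0.10 in AAKO mice (adjusted p = 8.09e-05), and these differences were unequal (0.42 ± 0.14, adjusted p = 0.0196), a call lost within each wash batch (0.44 and 0.29).

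After CL316243 Khk was 1.43-fold lower in AAKO than in CTRL livers (-0.52 ± 0.10, adjusted p = 0.000205), with overlapping ranges. Against fed livers Khk differed in CL316243-treated ones by -0.37 ± 0.10 in AAKO mice (adjusted p = 0.00419) and by 0.06 in CTRL mice (95% interval -0.14 to 0.26). The interaction with fed livers (-0.43 ± 0.14, adjusted p = 0.0427) was lost on leaving out any of 14 of 24 arrays, one at a time. Within wash batch 2 the genotype difference after CL316243 was -0.30 (adjusted p = 0.199), against -0.62 in batch 1 (adjusted p = 0.00837), and the AAKO change with the agonist was -0.07 (adjusted p = 0.812) against -0.57 (adjusted p = 0.00871). A second Khk probe, at chr5:31229105-31229164 in mm9 and 5′ of the first at chr5:31233555-31233614 on the plus strand, gave -0.58 after CL316243 (adjusted p = 0.000673) and, after the fast, 0.26 (adjusted p = 0.0779) where the first gave -0.09. Its fall with the fast was -0.97 in CTRL and -0.55 in AAKO livers, both called, with an interaction of 0.43 (adjusted p = 0.0548). Fasted against CL316243-treated AAKO livers gave -0.15 on it, not called (adjusted p = 0.284). The interaction of genotype with that pair of conditions was 0.84 on it (adjusted p = 0.000352). Its interaction of CL316243 with fed livers was -0.41, not called (adjusted p = 0.137).

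Pfkl encodes the liver form of phosphofructokinase, which commits sugar to glycolysis. The brighter probe read 0.05 to 0.72 in fed CTRL livers (median 0.21), -0.81 to -0.05 in fasted (median -0.37) and -0.11 to 0.24 in CL316243-treated ones (median 0.10). In AAKO livers it read 0.07 to 0.43 (median 0.35), -1.05 to -0.69 (median -0.82) and -0.36 to -0.22 (median -0.29). The CL316243-treated AAKO livers were all below the CL316243-treated CTRL livers, and fasted livers were all below fed ones in each genotype. By this probe Pfkl was 1.64-fold lower in fasted than in fed CTRL livers (-0.72 ± 0.11, adjusted p = 1.34e-06) and 2.20-fold lower in AAKO livers (-1.13 ± 0.11, adjusted p = 5.08e-11). AAKO livers were lower than CTRL by 1.37-fold after the fast (-0.46 ± 0.11, adjusted p = 0.000544; -0.28 and not called within wash batch 2) and by 1.26-fold after CL316243 (-0.34 ± 0.11, adjusted p = 0.0180); the latter was not called within either wash batch (-0.25 and -0.44). Fasted against CL316243-treated livers gave -0.46 ± 0.11 in CTRL mice (adjusted p = 0.000775) and -0.58 ± 0.11 in AAKO mice (adjusted p = 1.99e-05), the former not called within wash batch 1 (-0.25). The interaction of fasted with fed livers was -0.42. Its call was lost in 7 of 15 other settings, among them median scaling (adjusted p = 0.0620), the authors' value table (adjusted p = 0.0831) and slide as a factor (adjusted p = 0.0700), and on leaving out any of 5 of 24 arrays.

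A second Pfkl probe did not follow the first. It lies at chr10:77470357-77470416 on the minus strand, and the first at chr10:77450926-77450985, further along the transcript (mm9). On this probe AAKO livers were higher than CTRL after the fast (0.64, adjusted p = 0.00724), with means of -0.92 ± 0.42 (SD, n = 6) against -1.56 ± 0.23. The probe read higher in fasted than in fed AAKO livers (0.47, adjusted p = 0.0355), with no call in CTRL livers (-0.12). It was also higher in fasted than in CL316243-treated AAKO livers (0.48, adjusted p = 0.0356), where the first probe was lower and the mean over both gave -0.05 (adjusted p = 0.709). Averaged over both probes the fasted genotype difference of Pfkl was 0.09 and the interaction of fasted with fed livers 0.09, in place of -0.46 and -0.42. The Pfkl differences called on the brighter probe, between genotypes and between conditions, are therefore those of that probe alone. The second gave -0.21 for fasted against CL316243-treated CTRL livers (adjusted p = 0.446). It gave -0.01 for CL316243-treated against fed AAKO livers (adjusted p = 0.983) and -0.05 between genotypes after CL316243 (adjusted p = 0.898). Averaged over both probes the falls with the fast were -0.42 in CTRL and -0.33 in AAKO livers, both called. A further Pfkl probe, above background on 11 of 36 arrays and not tested, shares a run of 45 of its 60 bases with the window upstream of the RefSeq start, beginning 238 bases before it. Its given coordinates, chr10:77463425-77463467 on the minus strand (mm9, a span of 43 bases), lie between those of the first and second probes. The placements were not reconciled, so whether this probe lies outside the transcript is not settled. The shared run is shown.
Run shared by the further Pfkl probe and the upstream window: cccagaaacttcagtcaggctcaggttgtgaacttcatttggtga

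**Figure D4:**
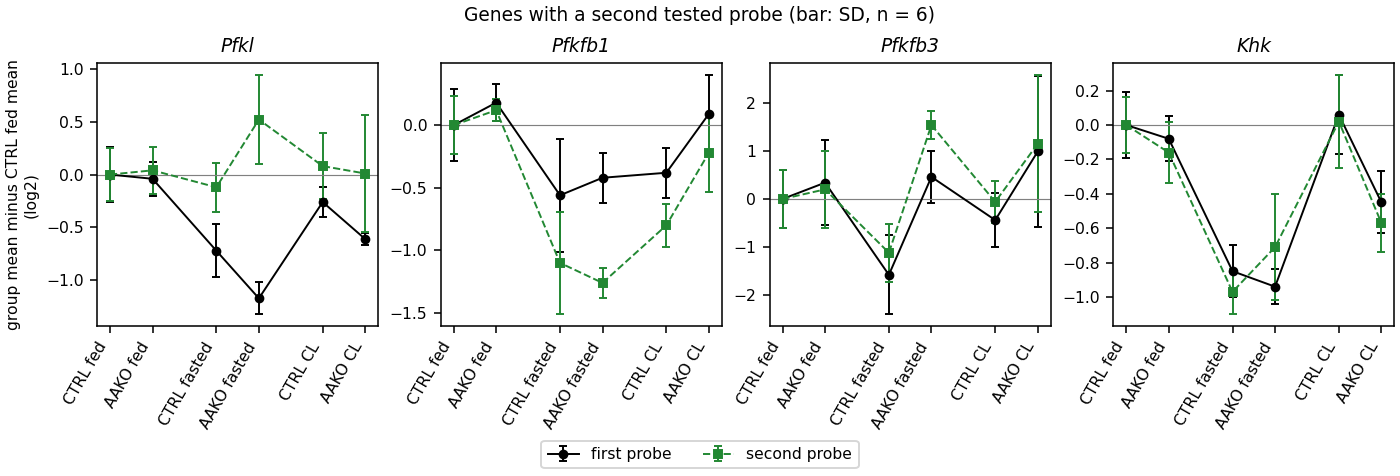
Group means relative to the fed CTRL mean (log2, vertical axis) of the first probe (black circles) and second probe (green squares) of the genes with 2 tested probes, in the 6 groups; bars are SD of 6 livers. For Pfkl the probes part after the fast, where the second reads 0.64 higher and the first 0.46 lower in AAKO than in CTRL livers, while for Pfkfb1 and Khk both probes lie below the fed CTRL mean in both fasted groups.

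Pfkfb1 and Pfkfb3 encode enzymes that set the level of fructose 2,6-bisphosphate; Pfkfb1 is the form of adult liver, and Pfkfb3, with high kinase activity, is found in many cell types. Pfkfb1 ran from 3.56 to 4.35 in fed (median 3.92), 2.70 to 4.08 in fasted (median 3.35) and 3.34 to 3.89 in CL316243-treated CTRL livers (median 3.56). In AAKO livers it ran from 3.87 to 4.29 (median 4.17), 3.22 to 3.75 (median 3.56) and 3.67 to 4.53 (median 4.04). Only the fed and fasted AAKO livers did not overlap. The fast lowered Pfkfb1 1.47-fold in CTRL (-0.55 ± 0.16, adjusted p = 0.00534) and 1.52-fold in AAKO livers (-0.60 ± 0.16, adjusted p = 0.00159), though within the wash batches the CTRL fall was not called (-0.68 and -0.43). After CL316243 it was 1.40-fold higher in AAKO livers (0.48 ± 0.16, adjusted p = 0.0261), a call lost in 4 of 12 fits that left out an array of these groups and within each wash batch (0.29 and 0.69). The second Pfkfb1 probe gave 0.59 there (adjusted p = 0.00264) and larger falls with the fast, -1.11 in CTRL and -1.38 in AAKO livers. It also fell with CL316243 in CTRL livers (-0.81, adjusted p = 0.000111), where the first probe was not called (-0.38, adjusted p = 0.0881). Its interaction of fasted with CL316243 livers was -0.75 (adjusted p = 0.00469), against -0.35 on the first, not called (adjusted p = 0.258).

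Pfkfb3 was the most variable of the 8 genes between livers of a group. Fed CTRL livers ranged from 0.55 to 2.21 (median 1.98), fasted ones from -0.53 to 1.80 (median -0.09) and CL316243-treated ones from 0.55 to 1.99 (median 1.27). AAKO livers ranged from 0.50 to 3.07 (median 2.21), from 1.41 to 2.80 (median 2.28) and from 0.34 to 4.35 (median 2.89). Among fasted livers the genotypes overlapped through CTRL replicate 2 alone, whose 1.80 lay above the next CTRL value of 0.24. Pfkfb3 was 2.99-fold lower in fasted than in fed CTRL livers (-1.58 ± 0.51, adjusted p = 0.0123) and differed by 0.12 ± 0.51 in AAKO livers. Fasted AAKO livers were 4.12-fold higher than fasted CTRL livers (2.04 ± 0.51, adjusted p = 0.00126). Without CTRL fasted replicate 2 the last difference was 2.37 (adjusted p = 0.000252). Within wash batch 2, which holds that array, it was 1.53 and not called (adjusted p = 0.0785), against 2.55 in batch 1 (adjusted p = 0.0174). The CTRL change with the fast was -0.84 (adjusted p = 0.346) against -2.32 (adjusted p = 0.0406). Fasted and CL316243-treated CTRL livers differed by -1.15, not called (adjusted p = 0.0794), and by -1.47 without CTRL fasted replicate 2 (adjusted p = 0.0256). The interaction of fasted with fed livers was 1.70 ± 0.72 and not called (adjusted p = 0.0690), and was called without that array (2.02, adjusted p = 0.0234).

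The second Pfkfb3 probe, whose sequence is shown with those of Slc2a2 and Pklr, was dim, with a mean of -3.90 over all arrays, and was well above background on 33 of 36 arrays but on only 3 of 6 fasted CTRL arrays. Its values against that group rest partly on signals near background. On it the fasted genotype difference was 2.66 (adjusted p = 8.09e-06) and the interaction with fed livers 2.45 (adjusted p = 0.00262). It also rose with the fast in AAKO livers (1.34, adjusted p = 0.00905), where the first probe was not called. On the first probe the genotype difference after CL316243 was 1.44 ± 0.51 (adjusted p = 0.0378). That call was lost in 7 of 12 fits without an array and within both wash batches (0.96 and 2.04). The second probe gave 1.19 between genotypes after CL316243 (adjusted p = 0.0492). The summed stellate cell level given beside Slc2a1 was also higher in fasted AAKO livers, though the median change of the 6 stellate markers was -0.10. The summed neutrophil levels overlapped between the genotypes. The part of these cells in the Pfkfb3 difference was not tested.

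Pklr encodes the pyruvate kinase of liver and red cells. Its level was -0.22 to 1.37 in fed (median 0.34), -1.21 to -0.15 in fasted (median -0.62) and -0.17 to 0.80 in CL316243-treated CTRL livers (median 0.47). In AAKO livers it was -0.36 to 0.99 (median 0.08), -0.27 to 1.00 (median -0.01) and -1.07 to -0.43 (median -0.83). The low group was thus the fasted one in CTRL mice and the CL316243-treated one in AAKO mice, and no CL316243-treated AAKO liver reached the level of any fasted or fed AAKO liver.

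Pklr was 2.06-fold lower in fasted than in fed CTRL livers (-1.04 ± 0.25, adjusted p = 0.00114) and was not called in AAKO livers (0.05, 95% interval -0.47 to 0.57). CL316243-treated against fed livers showed the reverse. The difference was 0.02 in CTRL livers (95% interval -0.51 to 0.54), not called, and a 1.91-fold fall in AAKO livers (-0.93 ± 0.26, adjusted p = 0.00540). AAKO livers were accordingly 1.78-fold above CTRL after the fast (0.83 ± 0.25, adjusted p = 0.00713) and 2.31-fold below after CL316243 (-1.21 ± 0.26, adjusted p = 0.000609). The difference between these genotype effects, within 1 experiment, was 2.04 ± 0.36 (adjusted p = 5.25e-05), the largest interaction among the 8 genes for that pair of conditions. It was 2.25 and 1.67 within the wash batches, both called. The genotype difference after CL316243 was -1.23 and -1.03, both called. Within batch 2 alone calls were lost for AAKO against CTRL after the fast (0.64, adjusted p = 0.0599), fasted against fed in CTRL (-0.56, adjusted p = 0.101), CL316243 against fed in AAKO (-0.23, adjusted p = 0.658) and fasted against CL316243 in AAKO livers (0.69, adjusted p = 0.0521), all called in batch 1. The interaction with fed livers was 1.10 ± 0.36 for the fast (adjusted p = 0.0176) and was not called within either batch (1.18, adjusted p = 0.118, and 1.02, adjusted p = 0.0687). For CL316243 it was -0.95 ± 0.36, not called (adjusted p = 0.0919).

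The Pklr product and the red cell precursor markers share a cell type. Summed red cell marker levels were 187 to 308 in fasted AAKO livers against 243 to 504 in fasted CTRL livers, and 200 to 512 in CL316243-treated AAKO against 138 to 369 in CL316243-treated CTRL livers. The ranges overlapped in both conditions, and their part in the Pklr differences was not tested.

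Other genes of sugar use were counted from a list of 43, of which 42 were tested. Between AAKO and CTRL none was called in fed livers, 11 were higher and 12 lower after the fast, and 5 higher and 7 lower after CL316243 (54.8% and 28.6% of those tested, beside 49.3% and 24.8% of all genes), with list medians of 0.03 and 0.06 beside -0.04 and 0.03 for all genes in the latter conditions. After the fast the largest rises were in Ldhb (2.39 ± 0.33, adjusted p = 3.64e-07), a lactate dehydrogenase subunit, in Txnip (1.94 ± 0.25, adjusted p = 1.23e-07), an arrestin-like protein that lowers glucose uptake and is a target of ChREBP, and in Slc2a3 (1.79 ± 0.43, adjusted p = 0.000834), the carrier GLUT3 of neurons and leukocytes. Slc2a3 was dim, with mean levels of -2.91 in fasted AAKO and -4.71 in fasted CTRL livers. The largest falls were in the fructose carrier Slc2a5 (-1.45 ± 0.23, adjusted p = 3.17e-06), in Ldha (-1.27 ± 0.12, adjusted p = 4.22e-10), the other lactate dehydrogenase subunit, and in Bpgm (-1.05 ± 0.09, adjusted p = 2.67e-11), which makes 2,3-bisphosphoglycerate in red cells.

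After CL316243 Ldhb was again higher in AAKO livers (0.97 ± 0.33, adjusted p = 0.0286), with Mlx (0.76 ± 0.09, adjusted p = 9.99e-08), the partner of ChREBP, and Pfkfb2 (0.72 ± 0.13, adjusted p = 0.000108), a further bifunctional enzyme. Lower were Slc2a5 (-1.39 ± 0.23, adjusted p = 2.93e-05), Txnip (-1.37 ± 0.25, adjusted p = 0.000121) and Tkfc (-1.16 ± 0.17, adjusted p = 3.28e-06), the triokinase that follows ketohexokinase in fructose use. Of 6 genes of fructose and polyol use 4 were lower in AAKO livers in each of these conditions, and 1 was higher after the fast, beside 28.0% of all genes lower and 21.3% higher after the fast and 11.3% lower after CL316243. Txnip thus stood, as Pklr did, above CTRL after the fast and below it after CL316243, and its interaction between these conditions was 3.30 ± 0.36 (adjusted p = 3.74e-08).

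With the fast 8 genes of the list rose and 11 fell in CTRL livers, and 10 rose and 17 fell in AAKO livers. These are 45.2% and 64.3% of the tested list, near the 43.3% and 63.5% of all genes called. Arrdc4, an arrestin-like relative of Txnip, and Txnip itself led the rises in both, with Arrdc4 at 2.13 ± 0.13 (adjusted p = 3.63e-14) and 3.14 ± 0.13 (adjusted p = 3.34e-18). Hk3, a hexokinase of leukocytes, fell by 1.24 and 1.98 on the log2 scale and Sord, sorbitol dehydrogenase, by 1.17 and 1.54. Mlxipl was among the largest falls in AAKO livers (-1.24 ± 0.11, adjusted p = 8.67e-12). CL316243 against fed livers gave 6 higher and 8 lower in CTRL mice, led by Tkfc (0.74 ± 0.16, adjusted p = 0.00121) and Slc2a4 (-1.82 ± 0.57, adjusted p = 0.0195), and 3 higher and 9 lower in AAKO mice, led by Ldha (0.49 ± 0.12, adjusted p = 0.00258) and Hk3 (-1.21 ± 0.22, adjusted p = 8.50e-05). These are 33.3% and 28.6% of the tested list, beside 23.3% and 31.4% of all genes. Slc2a4 was dim, with mean levels of -4.00 in CL316243-treated and -2.17 in fed CTRL livers.

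**Figure D5:**
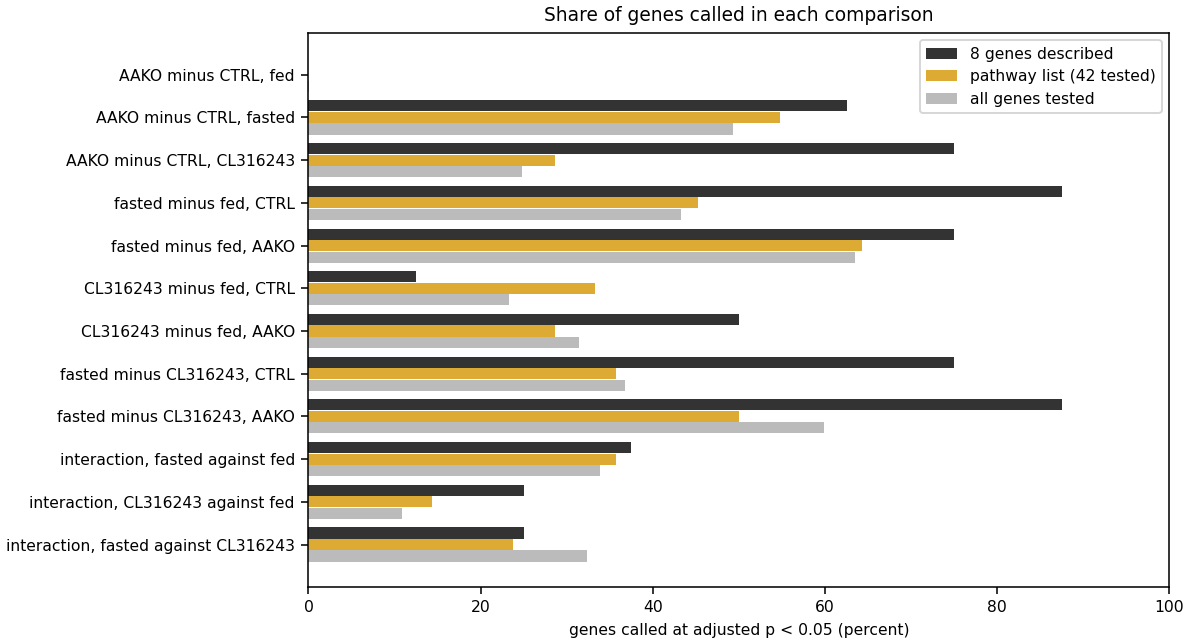
Percent of genes called at the adjusted threshold (horizontal axis) in each of the 12 comparisons (rows), for the 8 genes described (black), the 42 tested genes of the pathway list (yellow) and all genes tested (grey). The pathway list reaches 54.8% beside 49.3% of all genes for AAKO against CTRL after the fast; the 8 genes reach 75% beside 24.8% after CL316243 and 12.5% beside 23.3% for CL316243 against fed CTRL livers.

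Likeness over the 36 arrays is given as Pearson's r of log2 levels, as a description; the arrays share groups, scaling and depth of signal. Khk was most like Tkt, transketolase (0.944), and Pygl, liver glycogen phosphorylase (0.934), and Pfkl most like Adi1 (0.956) and Rnf123 (0.955). Slc2a2 was most like Apol7a (0.932) and Klkb1, plasma prekallikrein (0.929), Gckr like Kptn (0.913) and Zdhhc9 (0.905), and Slc2a1 like Ddit4, a stress-induced inhibitor of mTORC1 signalling (0.872), and Rhbdf2 (0.855). The likest genes were less close for Pfkfb1 (Spcs1 at 0.773 and Tagap at 0.759), Pfkfb3 (Cldn14 at 0.770 and Cbfb at 0.759) and Pklr. The gene most like Pklr was Hcn3 (0.792), its immediate neighbour on chromosome 3 in the RefSeq table, followed by Amd2 (0.702). Over the 6 group means the values for these first-named genes were 0.988 for Tkt, 0.990 for Adi1, 0.975 for Apol7a, 0.977 for Kptn, 0.991 for Ddit4, 0.979 for Spcs1, 0.796 for Cldn14 and 0.766 for Hcn3.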

How the data were processed

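Liver RNA (200 ng, TRIzol, Cy3) was hybridised to 36 arrays and scanned with Agilent Feature Extraction 10.10.1.1, per the submitters' processing notes. Each deposited file holds linear fluorescence intensity per spot, background-subtracted by the scanner software per the file headers, with flags for outlier and well-above-background spots. The authors also deposited a value table, whose values are log2: its columns, each with r of 0.99957 to 0.99981 to its own array, have no gene centring. Column medians were equal within a group: 7.01 in fasted AAKO, 6.97 in fasted CTRL, 6.93 in fed AAKO, 6.91 in fed CTRL and in CL316243-treated CTRL, and 6.88 in CL316243-treated AAKO livers. The exact normalization is not given in the sources used here; the table served as an alternative.

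Here log2 processed intensity minus the array's 75th percentile was used. Outlier spots (0.127%) were dropped, so a few values are means over fewer spots, and spots of a probe were averaged. Symbols were updated through RefSeq accessions (32994 probes matched, 1535 symbols changed). A gene took its brightest probe among those well above background on at least 5 of 6 arrays of a group. limma 3.58.1 (R 4.3.3) fitted the 6 groups with wash batch as a term to all 36 arrays, and p-values were two-sided and Benjamini-Hochberg adjusted over 24250 genes; the values ± are SE of the fit. Precision is limited by 6 arrays per group. Labels give 1 liver per array and do not say more about how mice were drawn, so p-values measure the spread between these samples. Replicate numbers are shared by the groups but did not pair arrays: 14 of 90 same-numbered pairs correlated above 0.1 (range -0.202 to 0.260). The script was tested on simulated data.

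Named genes were the 8 genes, the 2 genes most like each, and up to 3 called genes of the pathway list with the largest rise or fall; the members and lists were chosen with earlier results of these data known. Alternatives changed background correction, scaling, filter, slide, wash batch, probe rule, replicate block and each left-out array. Protein sequences were not used here.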

Additional observations from a re-analysis of the deposited data

Results flagged for a closer look

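A single array stood far from the other 5 of its group, by the gap to its neighbour against the group's range, in 2 of 48 sets of 6 values looked at (each gene in each group); chance gives about 1 in 20. Both were Pfkfb3: fed CTRL replicate 1 at 0.55, with the next value at 1.93, and fasted CTRL replicate 2 at 1.80, with the next at 0.24. The latter is also the array that stood apart over all genes.

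The effect of the genotype differed between conditions, by the interaction test, in 7 cases. Between fasted and fed livers it differed for Pklr (1.10), Slc2a1 (1.11) and Pfkl (-0.42), beside 33.9% of all genes. The Pfkl value is that of its brighter probe, with its call lost in 7 of 15 other settings. Between CL316243 and fed livers the genotype's effect differed for Slc2a2 (-1.39) and Khk (-0.43), beside 10.9% of all genes. Between fasted and CL316243 livers it differed for Pklr (2.04) and Khk (0.42), beside 32.3%. The Khk value of -0.43 lost its call in 6 of 15 other settings and without any of 14 of 24 arrays. Within the wash batches only Pklr at 2.04 was called in both, and Slc2a1 at 1.11 in batch 2 alone. The others were called in neither. In CL316243-treated AAKO livers Pfkfb3 reached 4.35 in one mouse and 0.34 in another, the widest range of any gene and group here.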

How the results depend on the processing

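Of 1440 values of the 8 genes under 15 other settings, 1365 kept their side of the threshold and, where called, their direction (30 uncalled values changed sign), 54 lost and 19 gained a call, and 2 turned: Pfkl for AAKO against CTRL fasted (0.09) and for the interaction of fasted with fed (0.09), both with the mean over probes. Leaving out 1 array turned no called value; 30 of 1440 lost and 15 gained a call. Within wash batch 2 alone, the genes called fell to 1 (AAKO against CTRL fasted), 2 (the same with CL316243), 4 (fasted against fed, CTRL), 1 (CL316243 against fed, AAKO) and 4 (fasted against CL316243, AAKO); each batch has 2 to 4 arrays per group. CL316243 against fed in CTRL gave 2 with normexp, quantile scaling, the authors' value table or the mean over probes, 0 within wash batch 1, and 1 to 2 on leaving out an array (2 without fed CTRL replicate 4 or 5). The interaction of fasted with fed gave 1 within either batch and 2 to 5 on leaving out an array (5 without fasted AAKO replicate 5 or fasted CTRL replicate 2). That of CL316243 with fed gave 1 with median scaling, no filter, only its own groups or the mean over probes, 0 within either batch, and 1 to 3 on leaving out an array; that of fasted with CL316243 gave 1 within either batch. With a replicate block 1 call of 96 changed: Gckr after CL316243 passed (-0.35, adjusted p = 0.0309), making 7 genes. Over all genes, the 19 calls in fed livers became 3 with only these groups, 1 and 0 within the batches and 8 to 36 on leaving out an array. Within batches 1 and 2 the calls for AAKO against CTRL with CL316243 were 3014 and 1562, for CL316243 against fed 2127 and 1602 in CTRL and 4717 and 2280 in AAKO, and for the interactions 5150 and 3127 (fasted with fed), 460 and 476 (CL316243 with fed) and 4895 and 3087 (fasted with CL316243); the fasted genotype count was 7804 in batch 2, and in batch 1 fasted against fed and against CL316243 in CTRL gave 5920 and 4544. Scaling moved the share of higher calls by over 10 points in these comparisons: with the authors' table from 52.6% to 66.7% (AAKO against CTRL fed), 54.3% to 42.2% (with CL316243), 58.4% to 44.2% and 39.3% to 55.1% (interactions of CL316243 with fed and of fasted with CL316243) and 43.6% to 58.3% (fasted against CL316243, AAKO; 31.4% with normexp), and with median scaling from 48.3% to 37.8% and 52.2% to 39.1% (fasted against fed and against CL316243, CTRL). The largest move of the median over all genes was from -0.08 to 0.05 (fasted against CL316243, AAKO, authors' table). Fits within a batch also used fewer arrays, and the cause of these moves was not tested.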
